A study of Mus musculus with 12 samples.

Results

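The G1 cyclins and their kinases are described here in sorted mouse hematopoietic stem and progenitor cells, across wild-type and Osmr-/- animals. The genes are the D cyclins Ccnd1, Ccnd2 and Ccnd3, the E cyclins Ccne1 and Ccne2, and the kinases Cdk4, Cdk6 and Cdk2. They were taken by symbol, with no use of their values, and are 8 of the 43279 genes in the expression table. All 8 were among the 13358 genes that reached 10 normalised read counts in 5 or more libraries. That filter defines the tested genes throughout.

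The study asked how the lack of oncostatin M receptor signalling in bone-marrow niches alters stem cells. From each naïve adult mouse, 1000 lineage-negative (CD3ε, CD5, B220, CD11b, Gr-1 and Ter119), KIT+, SCA1+, FLT3-, CD48- cells were sorted out of the marrow of femur, tibias and ilium. Such cells include long-term and short-term repopulating stem cells. One group was wild-type C57BL/6 and the other was Osmr-/-, and the labels give no further allele, background strain, age or sex for either. Each library came from a different mouse, so the replicates are animals: 6 wild type (numbered 1 to 6) and 5 Osmr-/- (numbered 1, 2, 3, 5 and 6). The labels list 12 samples, and the knock-out numbered 4 was not analysed here.

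Libraries held 9.50 to 22.1 M (mega) reads counted in genes. Wild type 1 was the deepest, and wild type 1 and knock-out 3 lay at the ends of the leading principal component, which held 21.2% of the variance. The genotypes separated on that component, with all wild types at or below 13.5 (wild type 6) and all knock-outs at or above 19.0 (knock-out 5). Libraries numbered 1 to 3 and those numbered 4 to 6 separated on the next component (16.5%) in both genotypes. The labels name no batch, and these number sets were noticed from the data, so values within each set are given for the 8 genes and for the pathway genes and lists where they differ most. Osmr itself had 13 reads in all wild types together and 4 in all knock-outs together, and so it checks no label. The markers the sort selects for were abundant in both genotypes: Kit had 3740 ± 460 normalised read counts in wild type and 4455 ± 579 in Osmr-/- mice (SD, n = 6 and 5), and Ly6a, which encodes SCA1, had 5376 ± 1470 and 6893 ± 1837. The markers the sort selects against were lower but detected, with Flt3 at 504 ± 164 and 389 ± 148 and Cd48 at 637 ± 429 and 853 ± 355. None of these 4 genes passed the test between genotypes (limma adjusted p 0.450 to 0.528).

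Progress through G1 is driven by cyclins that bind and activate kinases. D cyclins, which are induced by growth factors and cytokines, pair with CDK4 or CDK6 and start to phosphorylate the retinoblastoma protein and its relatives, which releases E2F transcription factors. E cyclins, themselves E2F targets, pair with CDK2 and complete that step at the entry into S phase. Adult hematopoietic stem cells are mostly quiescent, and the level of CDK6 is known to set how fast they leave quiescence.

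Of the 5 members whose promoter window could be read from RefSeq (Ccnd3, Ccne1, Cdk2, Cdk4 and Cdk6), that of Cdk4 held the most E-boxes and is shown because Cdk4 had the highest level and, with Ccnd2, the lowest p between genotypes. The window is the 250 bases before the RefSeq start of the gene on the plus strand, chr10:127063285-127063534 in GRCm38.p6, written 5′ to 3′. Capitals mark CACGTG, the E-box read by MYC and related factors, which is its own reverse complement, so both strands are covered.

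Cdk4: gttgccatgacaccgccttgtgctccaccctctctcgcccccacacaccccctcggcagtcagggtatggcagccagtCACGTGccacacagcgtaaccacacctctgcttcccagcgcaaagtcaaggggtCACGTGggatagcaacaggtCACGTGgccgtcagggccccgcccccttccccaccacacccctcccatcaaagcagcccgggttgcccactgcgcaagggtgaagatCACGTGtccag

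It holds 4 E-boxes, which begin 172, 118, 98 and 11 bases before the start. Of 32851 RefSeq windows of the same length, 6.02% held at least 1 E-box and 7 windows (0.0213%) held at least 4. The Cdk6 window held 1, which begins 220 bases before the start, and the Ccnd3, Ccne1 and Cdk2 windows held none. The E2F motifs TTTCGCGC and TTTGGCGC and the STAT motif TTCNNNGAA, searched on both strands, were in none of the windows of these 5 genes, against 0.256%, 0.417% and 7.02% of all windows. These matches describe the sequence and show no binding.

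Among the 8 genes, Ccnd2 and Cdk4 were lower in the Osmr-/- libraries by about the same amount, and the 95% intervals of the other 6 differences included 0. In the limma fit on log2(normalised read count + 1), 0 of 8 passed an adjusted p of 0.05, where 0.0225% of all tested genes (3 of 13358) did. At an unadjusted p under 0.05, 2 of 8 were lower, Ccnd2 and Cdk4, and none was higher, against 10.5% of tested genes lower and 7.5% higher. A count model, edgeR, on the reads recovered from the normalised values also called 0 of 8 (0.015% of tested genes, and 0.00749% lower). DESeq2 on the same reads called 1 of 8, Ccnd2, where 4.27% of genes were called and 2.76% were called lower. In the authors' deposited table, 1 of 8, again Ccnd2, had an adjusted p under 0.05, where 4.46% of genes did and 2.79% did with a lower level. Over the 8 genes the median log2 difference, knock-out minus wild type, was -0.32, with 6 below 0 and 2 above, beside a median of -0.05 with 53.2% below 0 over all tested genes.

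**Figure D1:**
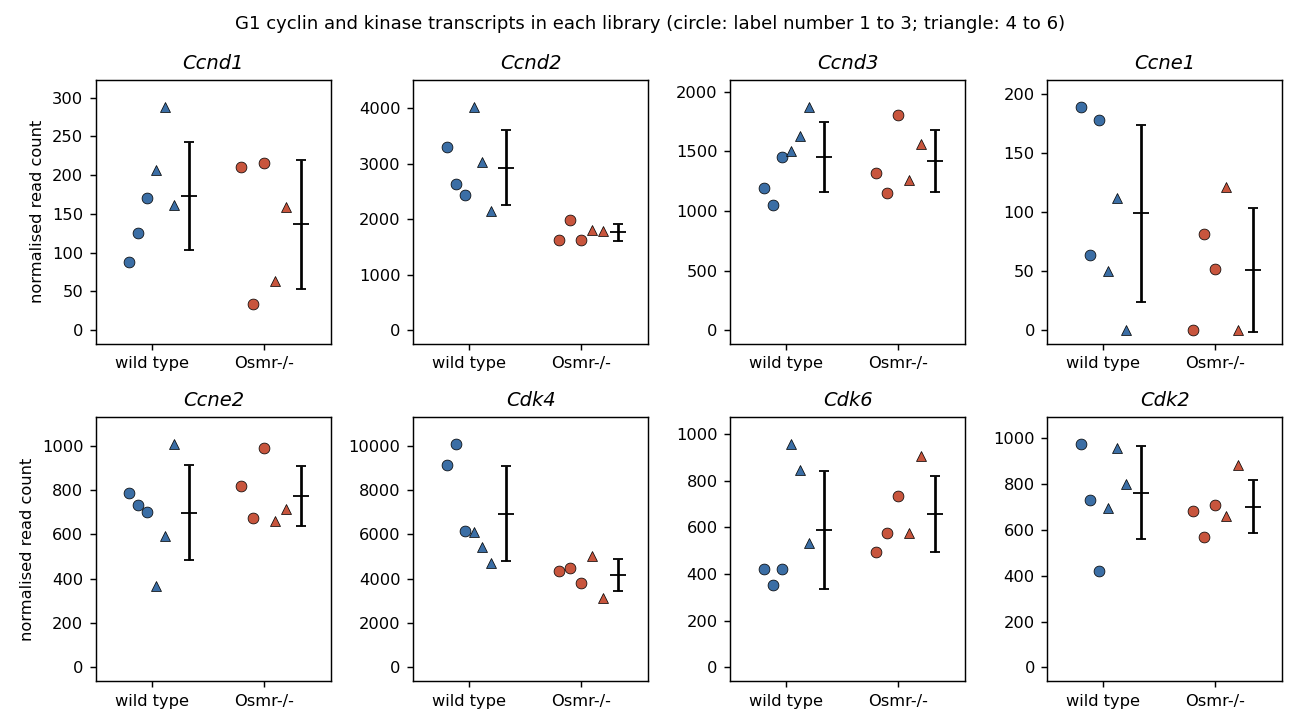
Normalised read counts (vertical axes, linear, each gene on its own scale) of the 8 genes in every library, with wild type in blue and Osmr-/- in red. Circles are libraries numbered 1 to 3, triangles those numbered 4 to 6, and bars give the mean ± SD (n = 6 and 5). All 5 knock-out points of Ccnd2 lie below all 6 wild-type points, and those of Cdk4 overlap by 1 knock-out library.

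Ccnd2 (chr6:127125162-127152193, minus strand, mm10) encodes cyclin D2, the D cyclin classically linked to cytokine signalling in blood cells. Its wild-type values ran from 2146 to 4030 normalised read counts with a median of 2828. The knock-out libraries had 1629, 1992, 1624, 1800 and 1778. Every knock-out library lay below every wild-type library, and the knock-outs were close to one another while the wild types spread widely. Such a separation, lower in Osmr-/- mice, was seen in 1.42% of tested genes (190), and in either direction in 2.52%, against 1 of the 8 genes here. The means were 2928 ± 678 in wild type and 1765 ± 151 in Osmr-/- mice (SD, n = 6 and 5), with coefficients of variation of 23.2% and 8.57%. A smaller variation in Osmr-/- mice was not particular to Ccnd2. It was also seen for Ccnd3, Ccne2, Cdk4, Cdk6 and Cdk2, while Ccnd1 and Ccne1 varied more in Osmr-/- mice.

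The log2 difference of Ccnd2 was -0.70 with a standard error of 0.198 and a 95% interval from -1.12 to -0.28, which is a level 38.6% lower in Osmr-/- mice. By limma its p was 0.00283 (place 312 of 13358) and its adjusted p 0.121, and the exact two-sided permutation p was 0.00433, where 0.0022 is the smallest that 6 against 5 mice can give. In the authors' deposited table the log2 fold change was -0.70 (adjusted p 0.0105). The call of Ccnd2 therefore rested on the tool: adjusted p was 0.0105 with DESeq2 and 0.134 with edgeR at log2 differences of -0.73 and -0.74. Numbers 1 to 3 gave -0.67 and numbers 4 to 6 gave -0.73 (limma interaction p 0.864, adjusted p 0.970). Without wild type 1 and knock-out 3, it was -0.63 (limma adjusted p 0.372).

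Ccnd3 (chr17:47505051-47599691, plus strand) encodes cyclin D3, which is needed for the expansion of lymphoid and erythroid precursors. Wild-type values ran from 1054 to 1876 with a median of 1480, and the knock-out libraries had 1321, 1148, 1804, 1260 and 1558 normalised read counts. The genotypes overlapped over nearly the whole range. It had a log2 difference of -0.03 (standard error 0.210, 95% interval -0.48 to 0.42, limma adjusted p 0.962), and its sign changed between the number sets, from 0.19 for numbers 1 to 3 to -0.25 for numbers 4 to 6.

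Ccnd1 (chr7:144929931-144939925, minus strand) encodes cyclin D1, the D cyclin most used outside the blood system. Its wild-type values ran from 88.4 to 289 normalised read counts with a median of 166. The knock-out libraries had 211, 34.3, 215, 63.8 and 159. Knock-outs 2 and 5 were below every wild type and the other 3 lay within the wild-type range. The log2 difference was -0.56 with a standard error of 0.513 and a 95% interval from -1.65 to 0.54 (limma adjusted p 0.596). It was -0.14 without knock-out 2, -0.09 for numbers 1 to 3 and -1.07 for numbers 4 to 6. Ccnd1 varied between mice by 40.0% in wild type and 61.2% in Osmr-/- mice, where counting error at its mean read number would give 7.81%.

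Within the D cyclins, Ccnd2 took on average a smaller share of the transcripts and Ccnd3 a larger share in Osmr-/- mice. Levels of different genes are compared per kilobase (kb) of annotated exon. By this measure Ccnd2 made up 60.4% ± 8.17 of the summed D cyclin level in wild type and 50.1% ± 7.71 in Osmr-/- mice (SD, n = 6 and 5). Ccnd3 made up 32.5% ± 7.07 and 42.5% ± 4.18, and Ccnd1 7.10% ± 2.29 and 7.47% ± 4.35. The ranges of the Ccnd2 share overlapped, from 47.9% to 69.4% in wild type and from 40.7% to 60.5% in Osmr-/- mice, and 3 of 5 knock-out libraries were below all wild types. Wild types 3, 5 and 6 lay within the knock-out range, at 56.2%, 56.6% and 47.9%. The ratio of Ccnd2 to Ccnd3 was 1.96 ± 0.602 in wild type and 1.20 ± 0.293 in Osmr-/- mice. The summed D cyclin level was 513.5 ± 79.7 normalised read counts per kb in wild type and 378 ± 33.0 in Osmr-/- mice. Its ranges did not overlap (426 to 644 against 348 to 424), but the gap between wild type 2 and knock-out 3 was narrow. With the length of the longest transcript, the ranges of the sum did overlap. Which of Ccnd2 and Ccnd3 was higher depended on the length used: with the longest transcript, the shares were 52.2% and 42.7% for wild type but 41.3% and 53.5% for Osmr-/- mice. These shares and sums are descriptions and were not tested.

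**Figure D2:**
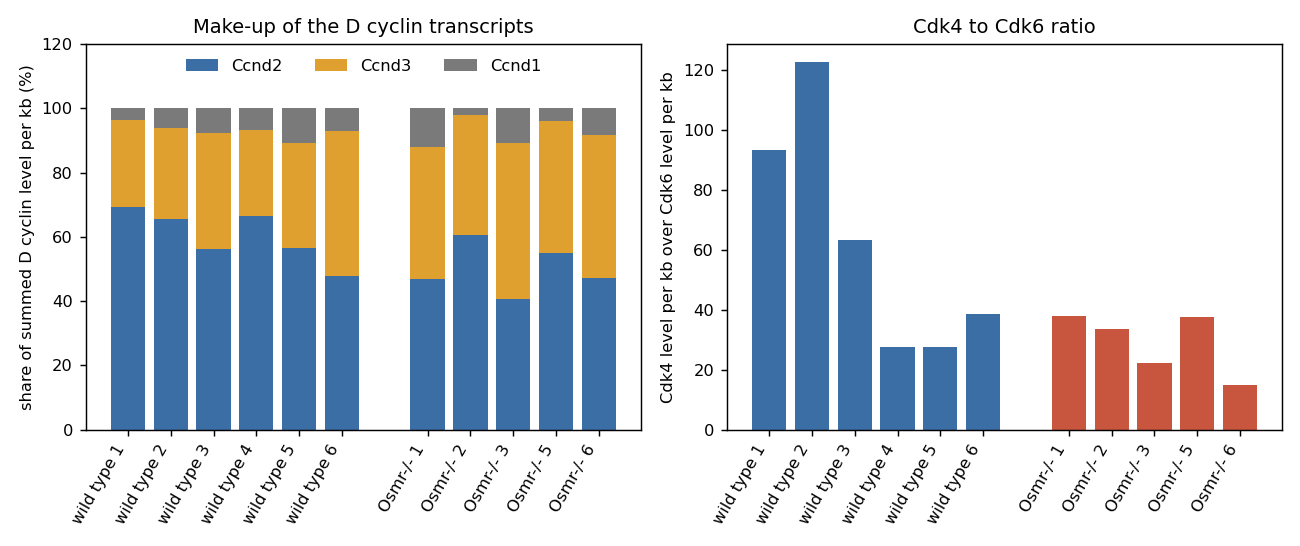
Left, the share (%) of the summed D cyclin level per kb that Ccnd2, Ccnd3 and Ccnd1 took in each of the 11 libraries. Right, the ratio of the Cdk4 to the Cdk6 level per kb in the same libraries, with wild type in blue and Osmr-/- in red. Wild types 1 to 3 have ratios of 63.0 to 122, while wild types 4 to 6 (27.5 to 38.3) and the knock-outs (14.8 to 37.9) overlap.

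Cdk4 (chr10:127063534-127067920, plus strand) encodes a kinase partner of the D cyclins. Its wild-type values ran from 4735 to 10084 normalised read counts with a median of 6138. The knock-out libraries had 4351, 4498, 3810, 5007 and 3118. Of the 5 knock-outs, 4 lay below every wild type, and knock-out 5 lay just above wild type 6, the lowest. The means were 6941 ± 2152 and 4157 ± 721 (SD, n = 6 and 5). The log2 difference was -0.70 with a standard error of 0.232 and a 95% interval from -1.20 to -0.21, a level 38.6% lower in Osmr-/- mice. By limma the p was 0.00828 (place 726) and the adjusted p 0.152, and the exact two-sided permutation p was 0.00866. The authors' deposited table gave Cdk4 a log2 fold change of -0.69 (adjusted p 0.0536, just above the threshold of 0.05).

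The Cdk4 difference was larger in the lower number set, though the sets were not resolved from each other. In numbers 1 to 3, wild type had 8461 ± 2045 and the knock-out 4220 ± 362 normalised read counts (SD, n = 3 and 3), a log2 difference of -0.98. In numbers 4 to 6, wild type had 5422 ± 689 (SD, n = 3) and the 2 knock-outs a mean of 4063, a log2 difference of -0.45. The knock-out means were close in both sets, and the wild-type means were not. The difference between the sets did not pass the test (limma interaction p 0.163, adjusted p 0.656). With the number set as a covariate, limma adjusted p was 0.0552 for both Cdk4 (-0.74) and Ccnd2 (-0.70), where 2.52% of tested genes were called. Without wild type 1 and knock-out 3, the Cdk4 difference was -0.59 (adjusted p 0.432).

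Cdk6 (chr5:3341485-3531008, plus strand) encodes the other D cyclin kinase. Wild-type values ran from 355 to 958 normalised read counts with a median of 477, and the knock-out libraries had 494, 576, 735, 577 and 908. All 5 knock-outs lay within the wild-type range. Its log2 difference was 0.23 (standard error 0.298, 95% interval -0.41 to 0.86, limma adjusted p 0.723). The lower number set gave 0.58 and the upper set -0.06. Wild types 1 to 3 averaged 399 and wild types 4 to 6 averaged 778, and the effect of the number set on Cdk6 was 0.64 on the log2 scale (limma p 0.0186, adjusted p 0.121, where 7.29% of tested genes were called and 0 of these 8).

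Cdk4 transcripts outnumbered Cdk6 transcripts per kb in every library. The ratio ran from 27.5 to 122 in wild type (62.0 ± 38.9) and from 14.8 to 37.9 in Osmr-/- mice (29.2 ± 10.2, SD, n = 6 and 5). The ranges overlapped, with 2 of 5 knock-outs below all wild types. The 3 highest ratios were those of wild types 1 to 3, in which Cdk4 was high and Cdk6 low. The summed Cdk4 and Cdk6 level per kb was 2179 ± 652 and 1326 ± 212, and 4 of 5 knock-outs were below all wild types.

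**Figure D3:**
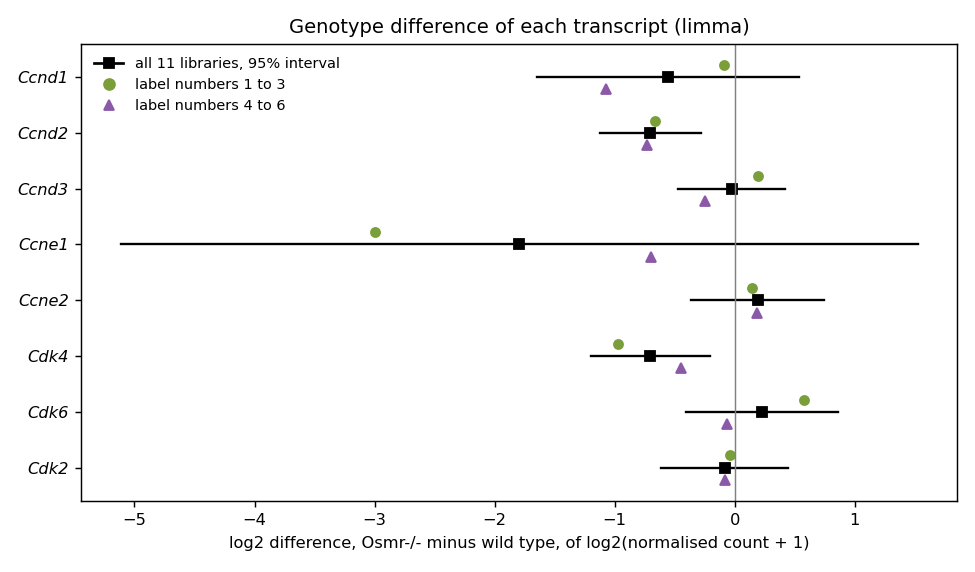
Log2 difference, Osmr-/- minus wild type, of log2(normalised read count + 1) for each gene (horizontal axis). Black squares with lines give the limma estimate over 11 libraries with its 95% interval, green circles the value in libraries numbered 1 to 3, and purple triangles that in numbers 4 to 6. The intervals of Ccnd2 and Cdk4 lie below 0 and the other 6 include it.

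Erythroid markers, like Ccnd2 and Cdk4, were lower on average in Osmr-/- mice. The libraries did not rank alike for Ccnd2: wild type 4 had the lowest erythroid sum of the wild types and the highest Ccnd2. For Cdk4, wild types 1 to 3 were the highest libraries on both, with 6163 to 10084 normalised read counts of Cdk4. In bulk libraries, fewer cells of a type and less RNA per cell cannot be told apart. Of 12 listed erythroid genes 11 were tested, and all 11 had a log2 difference below 0 (median -2.25), against 53.2% of all tested genes. By limma 1, Rhd, passed (adjusted p 0.0454), where 0.0225% of all tested genes did. At an unadjusted p under 0.05, 9 of 11 were lower, against 10.5% of all tested genes. An adjusted p under 0.05 with a lower level was held by 6 of 11 in the authors' deposited table, where 2.79% of genes had one. The summed normalised read count of the listed erythroid genes ran from 18082 to 58147 in wild type and from 12016 to 18370 in Osmr-/- mice. No listed gene was at 0 in every library. Slc4a1, a marker of maturing red cells, was at most 6.76, while Klf1, an erythroid transcription factor gene, was detected in all wild types and at 0 in at least 1 knock-out. Wild types 1 to 3 had sums of 53312 to 58147 and wild types 4 to 6 had 18082 to 20968. In numbers 4 to 6, where the erythroid sums were closest (12133 and 13387 in Osmr-/- mice), the Ccnd2 difference was -0.73 and that of Cdk4 -0.45. The part of erythroid cells in the differences of Ccnd2 and Cdk4 was not tested.

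Granulocyte and monocyte markers were high in knock-out 3, whose summed normalised read count of 29195 was the top of a knock-out range that began at 4758, against 3536 to 5579 in wild type. Without knock-out 3, the log2 difference was -0.67 for Ccnd2 and -0.68 for Cdk4. The 10 markers of the stem cell gate had sums of 21183 to 28239 in wild type and 22556 to 31989 in Osmr-/- mice, and none passed the test by limma (1 higher and 1 lower at an unadjusted p under 0.05).

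Ccne2 (chr4:11191351-11204779, plus strand) encodes cyclin E2. Wild-type values ran from 366 to 1008 normalised read counts with a median of 717, and the knock-out libraries had 819, 676, 989, 661 and 715. All knock-outs lay within the wild-type range. Its log2 difference was 0.19 (standard error 0.261, 95% interval -0.36 to 0.75, limma adjusted p 0.735), and it was 0.14 and 0.19 in the lower and upper number sets.

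Ccne1 (chr7:38097984-38107534, minus strand) encodes cyclin E1 and was the least certain of the 8. Its wild-type values ran from 0 to 190 normalised read counts with a median of 87.9, and the knock-out libraries had 0, 81.6, 51.6, 121 and 0. Wild type 6 and knock-outs 1 and 6 had no read at all, and the remaining libraries had 40 to 365 reads. A count of 0 allows up to 3 reads, which is 2.93 to 3.40 normalised read counts in these 3 libraries. Counting error at the mean read number would give a coefficient of variation of 10.4%, against 75.7% in wild type and 103% in Osmr-/- mice. The log2 difference was -1.79 with a standard error of 1.56 and a 95% interval from -5.11 to 1.52 (limma adjusted p 0.571), so no difference between the genotypes was detectable. This estimate rests on the libraries without reads: it was -2.91 without wild type 6 and -0.84 without knock-out 1 or without knock-out 6, and numbers 1 to 3 gave -3.00 and numbers 4 to 6 gave -0.70. It was -2.03 with a pseudocount of 0.5, -1.03 with a pseudocount of 10 and -0.97 by edgeR. Cyclin E1 took 15.7% ± 9.46 of the summed E cyclin level per kb in wild type and 7.90% ± 8.57 in Osmr-/- mice, and Ccne2 was the main E cyclin transcript in each library.

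Cdk2 (chr10:128697939-128705031, minus strand) encodes the kinase partner of the E cyclins. Wild-type values ran from 420 to 974 normalised read counts with a median of 763, and the knock-out libraries had 680, 570, 708, 662 and 883. All knock-outs lay within the wild-type range. It differed by -0.08 on the log2 scale (standard error 0.248, 95% interval -0.61 to 0.44, limma adjusted p 0.894), with -0.04 and -0.08 in the number sets.

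Ordered by level per kb over the 11 libraries, Cdk4 came first with 1747 ± 663 normalised read counts per kb (SD, n = 11), at percentile 96.1 of the tested genes with a known length. Ccnd2 followed with 255 ± 82.9, Ccne2 with 209 ± 50.8, Ccnd3 with 164 ± 30.5 and Cdk2 with 118 ± 26.4. Cdk6, Ccnd1 and Ccne1 were lowest, with 44.3 ± 14.9, 33.3 ± 15.9 and 29.0 ± 25.3, at percentiles 43.7, 36.6 and 32.9. Of neighbours in this order, only Cdk4 and Ccnd2 had ranges that did not overlap. Cdk2 was above Cdk6 in 11 of 11 libraries and Ccnd3 above Cdk2 in 10, whereas Ccnd2 and Ccne2, Cdk6 and Ccnd1, and Ccnd1 and Ccne1 changed places in 4 of 11. Ccnd2 was above Ccne2 in 5 of 6 wild types and 2 of 5 knock-outs. Ccne2 was above Ccnd3 in 9 libraries with the union of exons as the length and in 0 with the longest transcript, so the order of that pair is not settled.

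All of the 8 genes except Ccne1 share exonic bases with a gene or transcript on the opposite strand. The strand setting used for counting is not stated, so reads from such overlaps cannot be told apart. The longest of these overlaps was that of Ccnd1 with the protein-coding gene LTO1, over 1100 bases, but the expression table held no values under that symbol. Among overlaps with a tested gene, the longest was that of Cdk4 with Tspan31, over 641 bases. Tspan31 had 1336 ± 872 normalised read counts in wild type and 771 ± 106 in Osmr-/- mice (log2 difference -0.50, limma adjusted p 0.555). The antisense transcript 9330179D12Rik, which overlaps Ccnd2 by 368 bases, averaged 1.88 and 10.2 normalised read counts in the genotypes. Near-identical stretches in other genes, of at least 90% identity over at least 200 bases, were found for 2 members. Ccnd3 has the pseudogene Ccnd3-ps (96.6% over 417 bases), which averaged 0.118 normalised read counts, and Cdk6 has Gm16505 and 3 pseudogenes, so reads from those stretches could be split. Of the tested genes within 1 Mb, 5 of 7 around Ccnd2 lay below 0 (median log2 difference -0.35) and 18 of 30 around Cdk4 (median -0.07). Limma called none of them. At an unadjusted p under 0.05, 1 of 7 was lower and 0 higher around Ccnd2, and 4 of 30 were lower and 3 higher around Cdk4, against 10.5% and 7.5% of all tested genes.

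The genes whose log2 values followed those of a member most closely over the 11 libraries were found among 10739 tested genes with a mean of at least 50, by the root mean square distance of the centred values. For Cdk4 they were Sirt3 (0.113) and Spint2 (0.115), where the median gene lay at 0.801. Sirt3, a mitochondrial deacetylase gene, had 1656 ± 538 normalised read counts in wild type and 954 ± 98.1 in Osmr-/- mice, and Spint2, a protease inhibitor gene, had 4158 ± 1060 and 2404 ± 441. For Ccnd2 they were Kars, a lysyl-tRNA synthetase gene (0.197), and Pdia3, a protein disulfide isomerase gene (0.204), where the median gene lay at 0.759. Kars had 901 ± 143 and 622 ± 168, and Pdia3 2977 ± 629 and 1701 ± 248. For Ccne2 the nearest were Smim15 (0.199) and Nipa2 (0.202), and for Cdk2 they were Sft2d2 (0.183) and the checkpoint kinase gene Chek2 (0.195).

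Around the cyclins and kinases, the inhibitors of cyclin-dependent kinases (CDKs) lay lower in Osmr-/- mice and the retinoblastoma family higher, while E2F-driven genes of S phase centred near 0. Over 7 lists of 76 pathway genes, not all of them tested, limma called 0 and edgeR called 0 (0.0225% and 0.015% of all tested genes). DESeq2 called 7 of them (Ccnb2, Cdkn2c, E2f5, Fbxo31, Fbxo4, Rbl1 and Tk1), where 4.27% of genes were called. Limma with the number set as a covariate called 2, Ccnb2 (adjusted p 0.0428) and E2f5 (adjusted p 0.0406), where 2.52% of tested genes passed. The counts at an unadjusted p under 0.05 are given for each, where 10.5% of all tested genes were lower and 18% differed either way.

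Of the 7 CDK inhibitor genes, Cdkn2a and Cdkn2b were below the filter. All 5 tested had a log2 difference below 0 (median -1.31), and 4 of 5 were lower at an unadjusted p under 0.05. Cdkn2c, which encodes p18INK4C, an inhibitor of CDK4 and CDK6, had 200 to 413 normalised read counts in wild type with a mean of 277 ± 74.5. Its knock-out libraries had 29.5, 194, 137, 111 and 84.9, all below every wild type, as in 1.42% of tested genes. Its log2 difference was -1.50 (limma adjusted p 0.129), and the authors' deposited table gave -1.11 with an adjusted p of 0.0353. Cdkn2d, which encodes p19INK4D, had 899 ± 452 and 350 ± 190, a log2 difference of -1.31 (limma adjusted p 0.156). For numbers 1 to 3 the list median was -1.66 and for numbers 4 to 6 it was -1.20, with 5 of 5 below 0 in each set.

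The 3 retinoblastoma family genes, targets of the cyclin D kinases, all lay above 0 (median 0.70), and 1 of 3 was higher at an unadjusted p under 0.05. That gene, Rbl1, which encodes p107, had 622 to 845 normalised read counts in wild type and 1417, 1110, 1485, 1002 and 1002 in Osmr-/- mice. Every knock-out was above every wild type, as in 1.09% of tested genes. Its log2 difference was 0.70 (limma adjusted p 0.127), and the authors' deposited table gave 0.69 with an adjusted p of 0.00528. Rb1 had 1011 ± 549 and 1480 ± 362, a log2 difference of 0.79 (limma adjusted p 0.361), with wild type 1 far below the rest at 199. Without wild type 1, the difference of Rb1 and the list median were both 0.37.

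**Figure D4:**
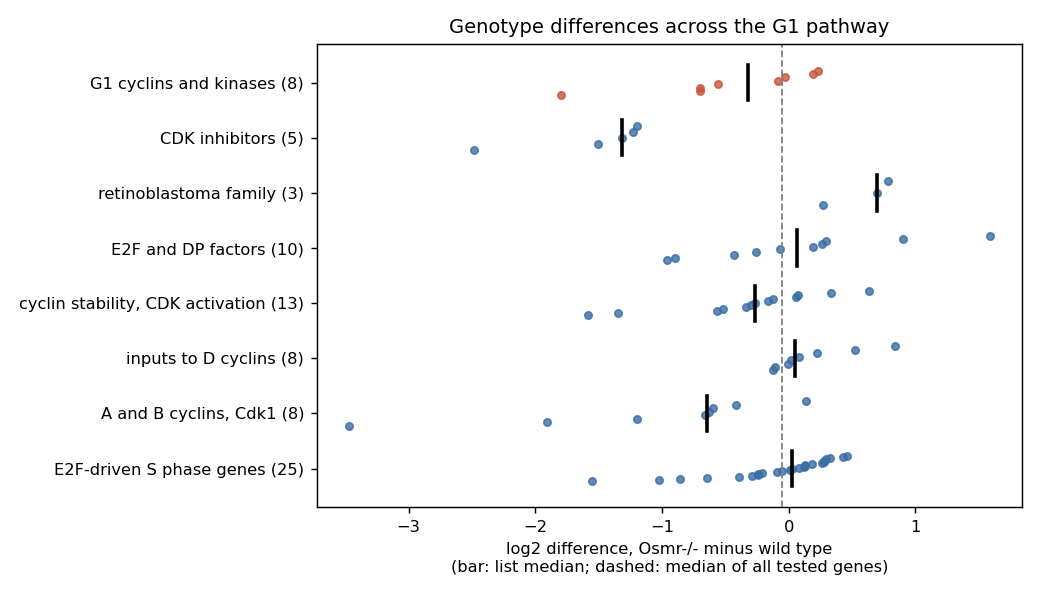
Log2 difference, Osmr-/- minus wild type (horizontal axis), of each tested gene in the 8 cyclins and kinases (red) and in 7 lists of pathway genes (blue), with the number tested in brackets. Thick bars are list medians and the dashed line is the median of all tested genes (-0.05). The 5 CDK inhibitors lie below 0 and the 3 retinoblastoma family genes above it.

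The 10 E2F and DP factors were split, with 5 above and 5 below 0 and a median of 0.06. At an unadjusted p under 0.05, 2 were higher and 2 lower. E2f5, a repressor of the family, had 643 ± 465 normalised read counts in wild type and 1758 ± 732 in Osmr-/- mice, a log2 difference of 1.59 (limma adjusted p 0.104), and the authors' deposited table gave 1.18 with an adjusted p of 0.0376. Wild type 3, at 1519, was the wild-type library within the knock-out range. E2f6, another repressor, had 466 ± 192 and 238 ± 85.2, a log2 difference of -0.89 (limma adjusted p 0.223). Of the 25 S phase genes that E2F factors drive, 14 lay above and 11 below 0 (median 0.02), with none higher and 3 lower at an unadjusted p under 0.05. Tk1, which encodes thymidine kinase, had 665 ± 339 and 231 ± 143 (log2 difference -1.55, limma adjusted p 0.121, and 0.0289 in the authors' deposited table), and Rpa2, a subunit of replication protein A, had 1252 ± 538 and 578 ± 168 (-1.02, limma adjusted p 0.181).

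Of 13 tested genes that set cyclin stability or CDK activation, 4 lay above and 9 below 0 (median -0.26), with 1 higher and 3 lower at an unadjusted p under 0.05. Fbxo4, an F-box gene linked to cyclin D1 turnover, had 360 ± 74.5 normalised read counts in wild type and 156 ± 66.1 in Osmr-/- mice (log2 difference -1.34, limma adjusted p 0.129). All its knock-outs lay below all wild types, as in 1.42% of tested genes. Fbxo31, also linked to cyclin D1 turnover, had 116 ± 53.0 and 35.7 ± 17.3 (-1.58, limma adjusted p 0.184). The authors' deposited table gave them adjusted p of 0.0276 and 0.0265. Of the 8 inputs to the D cyclins, 5 lay above and 3 below 0 (median 0.05), with 1 higher at an unadjusted p under 0.05. That was Mycn, a MYC family gene, with 698 ± 139 and 1343 ± 694 (0.84, limma adjusted p 0.156), whose highest value, 2531, was in knock-out 3. Myc had 1659 ± 500 and 2573 ± 1389 (0.52, limma adjusted p 0.418).

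The A and B cyclins act with CDK1 and CDK2 after G1. Of 8 tested genes of these cyclins, Cdk1 and its activators, 7 lay below 0 (median -0.64), with 2 lower at an unadjusted p under 0.05, Ccnb2 and Cdc25c. Ccnb2, a mitotic cyclin gene, had 2458 to 3212 normalised read counts in wild types 1 to 3, 655 to 943 in wild types 4 to 6 and 231 to 976 in Osmr-/- mice. The wild types of the upper number set thus overlapped the knock-outs and those of the lower set did not. Its log2 difference was -1.91 (limma adjusted p 0.0967), and the authors' deposited table gave -1.55 with an adjusted p of 0.00722. Numbers 1 to 3 gave -3.15 and numbers 4 to 6 gave -0.51 (limma interaction p 0.000747, adjusted p 0.232). Cdc25c, a phosphatase gene that activates CDK1, had 62.4 ± 39.1 and 10.7 ± 18.0 (log2 difference -3.47, limma adjusted p 0.149). It was -5.94 for numbers 1 to 3 and -0.19 for numbers 4 to 6 (limma interaction p 0.0055, adjusted p 0.324). Because some knock-outs had no reads, it was -1.85 with a pseudocount of 10, and its adjusted p in the authors' deposited table was 0.209. For numbers 1 to 3 the list median was -1.15, where that of all tested genes was -0.07, and for numbers 4 to 6 it was -0.28, where that of all tested genes was 0.00072. The erythroid sums described above were also highest in wild types 1 to 3, and their part in these values was not tested.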

How the data were processed

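Polyadenylated RNA of 1000 sorted cells per mouse was amplified with a SMART-Seq v4 kit, per the labels' protocols. The tools named are Trimmomatic 0.36.6, FastQC 0.72, HISAT2 2.1.0, HTSeq 0.9.1 and DESeq2 (wrapper 2.11.40.6), with build mm10, per the submitters' processing notes. Annotation and strand setting are not stated there. The authors divided gene counts by DESeq2 size factors, which makes the deposited signal a normalised read count. The authors' log2 values (regularised and variance stabilised) served as alternatives. The authors' deposited comparison table holds, per gene, the mean signal, log2 fold change, Wald score, p-value and adjusted p-value. All 615 of its called genes had the sign of wild type minus knock-out, so its fold changes are printed with the sign turned.

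Dividing each library's values by their common step gave whole reads for 100% of values (within 1e-06), used for edgeR 4.0.16 and DESeq2 1.42.0. The main fit was limma 3.58.1 with a mean-variance trend (R 4.3.3) on log2(normalised count + 1), with genotype alone, two-sided, Benjamini-Hochberg over 13358 genes at 0.05, where the label number of a mouse was not used as a block. Positions and exon lengths came from GENCODE M21 (39373 of 43279 symbols matched), and near-identical copies were sought with BLAST 2.17.0. Depth was 9.50 to 22.1 M (mega) reads per library. The floor of 3 reads and the counting variation cover counting error only: reads made by PCR without molecular identifiers are not independent. Scripts were tested on simulated data. The genes named were the 8 members, the 2 of lowest p in each of 7 pathway lists, the 2 genes nearest in pattern to the top member of each role, and the sort markers Kit, Ly6a, Flt3 and Cd48. Rhd, Slc4a1, Klf1, Meis1, Cdkn2a, Cdkn2b and the overlapping genes were named after their values were seen. The members and lists were chosen with earlier results of these data known.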

Additional observations from a re-analysis of the deposited data

Results flagged for a closer look

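Ccne1 in wild type 6, with 0 normalised read counts, lay far from the other 5 wild types when the values are taken on the log2 scale. The gap to the nearest of them was 0.750 of the range of the group, above the 95% critical value of Dixon's test for 6 samples (0.625). The excess depends on the pseudocount, since the value is log2(0 + 1): with a pseudocount of 10 the gap was 0.601 of the range and on the linear scale 0.266, both below 0.625. On the scale with a pseudocount of 1, it was the only one of 16 groups (8 genes in each genotype) to exceed its critical value, and chance exceeds it in about 5% of groups. Knock-outs 1 and 6 also had no Ccne1 read. Without wild type 6, the log2 difference of Ccne1 was -2.91 (limma adjusted p 0.237), and without knock-out 1 or without knock-out 6 it was -0.84 (limma adjusted p 0.819 and 0.809).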

How the results depend on the processing

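Ccnd2 and Cdk4 were lower in the knock-out under all 28 alternatives, with log2 differences of -0.79 to -0.50 (adjusted p 0.0105 to 0.440) and -0.98 to -0.45 (adjusted p 0.0552 to 0.563). DESeq2 called 1 of the 8 genes, Ccnd2 (-0.73), and no other alternative called any. Leaving out 1 library at a time gave -0.79 to -0.60 for Ccnd2 and -0.80 to -0.58 for Cdk4, with no call. Leaving out wild type 1 and knock-out 3 together was added after the data were seen and gave no call. The sign of Ccnd3 turned to 0.19 in numbers 1 to 3 alone, and its values without 1 library ran from -0.12 to 0.052, above 0 without wild type 5 or 6 or knock-out 2 or 5. That of Cdk6 turned to -0.061 in numbers 4 to 6 alone. The other 6 genes kept their direction. Over all genes, calls were 1 higher and 2 lower, but 238 and 436 by DESeq2, 133 and 204 with the number set as covariate, and 30 and 92 without wild type 6. Scaling moved the median of all genes by at most 0.074 (log2).

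With the length of the longest transcript in place of all exons, levels per kb were 379 for Ccnd2, 372 for Ccnd3, 2765 for Cdk4 and 225 for Cdk2, and Ccnd3 moved above Ccne2. The Ccnd2 share of the D cyclins was then 52.2% for wild type and 41.3% for Osmr-/- mice, and that of Ccnd3 42.7% and 53.5%, so that Ccnd3 rather than Ccnd2 was the main D cyclin transcript of Osmr-/- mice. That Ccnd2 took a smaller share in Osmr-/- mice than in wild type held with both lengths.

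Same-numbered mice were not paired by the labels, and their deviations from the group means correlated by only 0.020 to 0.099, with 1 of 5 knock-outs nearest to its own number. The fit with the label number as a replicate block left out wild type 4, which has no knock-out of its number here. In it 0 of the 8 genes were called, and over all genes 1 was called higher and 5 lower. The log2 difference was -0.60 for Ccnd2 and -0.73 for Cdk4, the same as without wild type 4 and with no block. Ccne1 and Ccnd1 had the lowest read numbers of the 8 genes, with as few as 0 and 29 reads in a library.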
